A study of Mus musculus with 18 samples.

Results

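The genes described here build and drive the cilium, the hair-like organelle that most vertebrate cells carry. They were taken from the gene table of a mouse retinal pigment epithelium (RPE) RNA-seq series by symbol: *Ift* or *Bbs* followed by a number, *Dnah* followed by a number with or without a letter, and *Wdr19*, *Wdr34*, *Wdr35*, *Wdr60*, *Ttc21b*, *Kif3a*, *Kif7*, *Foxj1*, *Rfx2* and *Rfx3*. The rule read symbols and no measured value, and it found 47 of the 52636 genes in the table. They comprised 11 genes of intraflagellar transport complex B, 6 of complex A, 8 Bardet-Biedl syndrome (BBS) genes, 2 dynein-2 chains, 2 kinesins, 15 axonemal dynein heavy chains and 3 transcription factors.

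Intraflagellar transport carries cargo along the ciliary microtubules. Complex B travels outward with kinesin-2, complex A and dynein-2 bring material back, and the BBS proteins sort membrane proteins into and out of the cilium. Axonemal dyneins are the motors that make motile cilia beat and have no known place in the non-motile primary cilium of the RPE or in the photoreceptor outer segment, itself a modified primary cilium. FOXJ1 is the transcription factor that switches on the genes of motile cilia, and RFX2 and RFX3 bind the X-box motif in front of many ciliary genes.

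The series holds 18 libraries from C57BL/6 mice at postnatal day 14, with 3 libraries in each of 6 groups. Apart from the uninjected group, all mice had received AAV8 vectors with the *Best1* promoter, which is active in the RPE, under the retina at birth. The vectors carried GFP, nSREBP2 (the constitutively nuclear N-terminal part of the sterol regulator SREBP2), a control short hairpin RNA (ctrl sh), or 1 of a pair of different hairpins against the endocytic receptor gene *Lrp2* (*Lrp2* sh1 and *Lrp2* sh2), the hairpin vectors also carrying mCherry. The study compared nSREBP2 with GFP and each *Lrp2* hairpin with ctrl sh, to look for genes downstream of SREBP2 and of *Lrp2* in the control of eye growth. Each library pooled both eyes of 1 mouse, and the RPE cells were loosened with papain from eyecups stripped of retina and optic nerve, with no sort, so that other cells of the eyecup could contribute. Each arm is a single vector, and each hairpin is 1 sequence. In such bulk samples, fewer cells of a type and less RNA per cell cannot be told apart.

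Total counts ran from 8921885 to 13696934 per library, so that 3 counts, the limit that a count of 0 allows, were worth 0.218 to 0.323 CPM (counts per 1000000 counts of the library, scaled by its normalization factor). These limits cover counting error only. *Lrp2* fell in all 3 arms, to 31.1 ± 6.48 CPM against 141 ± 46.8 CPM in GFP (mean ± SD, n = 3), and to 36.9 ± 6.65 (sh1) and 38.7 ± 4.73 CPM (sh2) against 118 ± 42.8 CPM in ctrl sh. *Srebf2*, which encodes SREBP2, rose only with its own vector among the 3 arms, from 101 ± 15.9 to 217 ± 15.9 CPM. The RPE markers varied widely between groups: the summed level of 12 RPE genes was 2787 to 8144 CPM in the uninjected libraries, 1920 to 4151 in ctrl sh, 1500 to 2401 in sh1, and only 483 to 612 in GFP, 416 to 621 in nSREBP2 and 528 to 893 in sh2. *Rpe65*, the RPE retinoid isomerase, had a mean of 1.64 CPM in GFP against 814 CPM in uninjected libraries, and fibroblast collagen and matrix genes summed to 18640 to 86910 CPM. By their Y-linked genes, all 3 nSREBP2 libraries, 2 sh2 libraries and 1 uninjected library came from males and the others from females, so that sex and nSREBP2 cannot be told apart within nSREBP2 against GFP.

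All 47 genes passed the low-count filter over the 6 groups, although the filter within a single comparison left 42 to 44 of them. Divided by exon length, the transport and BBS genes and the axonemal dyneins lay on different levels. The 29 transport and BBS genes had mean levels over the 18 libraries of 1.56 to 12.6 CPM per kb, *Ift20*, *Wdr35* and *Ift52* being the highest in that order. The place of *Wdr35* rested on the hairpin groups, with 22.45 CPM per kb in sh2 and 11.7 in sh1. In uninjected libraries it had 6.04 CPM per kb, below *Ift52* (7.28), *Ift43* (7.35), *Kif3a* (8.29), *Ift172* (8.58) and *Ift20* (10.2). The 15 axonemal dyneins lay between 0.0338 and 1.47 CPM per kb, their median was 0.145 CPM per kb, and only *Dnah7b* exceeded 1 CPM per kb. The 5 lowest, *Dnah3*, *Dnah5*, *Dnah6*, *Dnah7a* and *Dnah12*, had no more than 24 counts in any library. *Dnah7a*, *Dnah7b* and *Dnah7c* are close copies lying on chromosome 1, so their separate counts are uncertain. Exons of 15 of the 47 genes overlap other genes, in all 15 on the opposite strand (in *Bbs12* also on the same strand), and whether counting used the strand is not given in the sources used here.

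**Figure D1:**
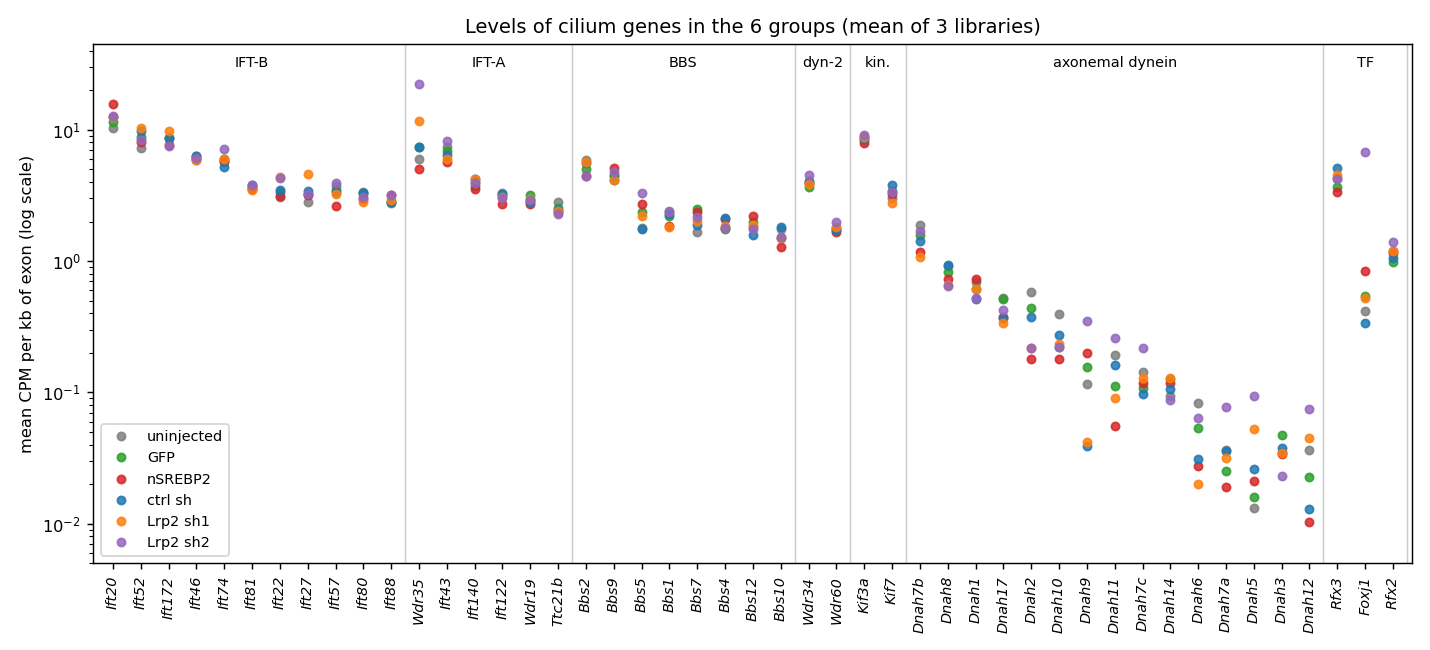
Mean level of each of the 47 genes in each group (CPM per kb of exon, log scale, dots coloured by group, mean of 3 libraries), arranged by role. Transport and BBS genes sit above 1 CPM per kb and change little between groups, *Wdr35* excepted, whereas axonemal dyneins sit mostly below 1; *Foxj1* in *Lrp2* sh2 stands far above its other 5 groups.

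In one fit of all 18 libraries, 23 of the 47 genes differed somewhere among the 6 groups (adjusted *P* under 0.05, edgeR), against 48.7% of all 19744 genes tested. They were 12 of the 29 transport and BBS genes, 9 of the 15 axonemal dyneins, and *Foxj1* and *Rfx3*. The ratio of the highest to the lowest group mean is given as a description, since it also grows with counting noise where counts are low. For the transport and BBS genes the highest group mean was 1.31 times the lowest at the median, and only *Wdr35* exceeded 2 times, with 4.45. For the axonemal dyneins this ratio was 2.23 at the median and 9.01 for *Dnah9*, and for *Foxj1* it was 20.002. *Dnah3* had a ratio of 2.06 and *Dnah7c*, the dynein at the median, 2.23, although neither passed the test (adjusted *P* = 0.801 and 0.0787), so the roles were not compared by this ratio. *Lrp2* sh2 was the highest of the 6 groups for 10 of the 29 transport and BBS genes, for 6 of the 15 dyneins, and for *Foxj1* and *Rfx2*. How often sh2 was highest over all genes was not counted, so these numbers are no result about the cilium genes. Some of these steps were small, as in *Ift81* (1.07 times, adjusted *P* = 0.738 in the test of any difference).

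The largest differences belonged to *Lrp2* sh2. Against ctrl sh, 8 of the 44 genes tested passed the test (18.2%), beside 18.1% of all genes tested in that comparison, so the share of called genes was that of the whole table. Of the 8, 6 rose and 2 fell, where 8.59% of all genes rose and 9.48% fell. Low genes such as *Dnah9*, with 11, 6 and 7 counts in ctrl sh, entered this test through their sh2 libraries. Such genes could only be called higher, so the count of genes that rose depends in part on the filter. Among the called genes, the largest changes were those of *Foxj1* and the outer-arm dynein *Dnah9*, followed by the complex A gene *Wdr35* and *Dnah7c*, and these 4 were the called members that also exceeded a log2 fold change (log2FC) of 1, which 4.76% of all genes passed in either direction. The median log2FC of the 44 genes was 0.10, that of all genes tested 0.01.

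*Foxj1* (chr11:116330704-116335399, minus strand, GRCm38) was at 20.4, 15.9 and 16.9 CPM in the 3 sh2 libraries. It was at 0.943, 0.625 and 1.10 CPM in ctrl sh and at 1.03, 1.16 and 1.96 CPM in sh1. It was at 0.706, 1.26 and 1.29 CPM in uninjected, 1.61, 1.69 and 0.975 CPM in GFP, and 2.16, 1.74 and 2.74 CPM in nSREBP2 libraries. Every sh2 library therefore lay above every one of the other 15 libraries, which carried 7 to 30 counts each against 190 to 256 in sh2. The log2FC against ctrl sh was 4.32 ± 0.21 (SE), a 20.02-fold difference (adjusted *P* = 1.83e-05). Against sh1, the other hairpin to the same target, it was 3.69 ± 0.22 (adjusted *P* = 4.44e-06), while *Lrp2* itself did not differ detectably between the hairpins (log2FC 0.08 ± 0.13, adjusted *P* = 0.728). Sh1 against ctrl sh gave 0.63 ± 0.37 for *Foxj1* (adjusted *P* = 0.389), and nSREBP2 against GFP gave 0.64 ± 0.32 (adjusted *P* = 0.194). The other 2 transcription factors did not pass in sh2: *Rfx2* had a log2FC of 0.43 ± 0.18 (adjusted *P* = 0.13) and *Rfx3* one of -0.26 ± 0.08 (adjusted *P* = 0.0625).

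*Dnah9*, an outer-arm heavy chain of motile cilia, was also highest in sh2, at a lower level. Its 3 sh2 libraries had 7.27, 4.78 and 4.69 CPM, its ctrl sh libraries 0.798, 0.469 and 0.59 CPM, and its sh1 libraries 0.395, 0.579 and 1.02 CPM. The remaining libraries lay between, with 1.21, 2.81 and 1.51 CPM in uninjected, 3.06, 2.04 and 2.33 CPM in GFP, and 3.67, 3.66 and 2.19 CPM in nSREBP2. No sh2 library overlapped any other group. The log2FC was 3.16 ± 0.31 against ctrl sh, an 8.91-fold difference (adjusted *P* = 0.000244), and 3.07 ± 0.34 against sh1 (adjusted *P* = 0.000207), and it was too low to be tested in sh1 against ctrl sh. The comparison with ctrl sh was made against the lowest group: *Dnah9* in ctrl sh was also 0.335-fold of the uninjected level (log2FC -1.58 ± 0.42, adjusted *P* = 0.0593).

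Among the other dyneins, the inner-arm chain *Dnah7c* rose from 1.16, 1.02 and 1.52 CPM in ctrl sh to 2.96, 2.35 and 2.93 CPM in sh2. Its log2FC was 1.17 ± 0.26 (adjusted *P* = 0.0146), with 0.0585 when ctrl sh replicate 2 was left out and 0.0821 with sex as a term. *Dnah11* had 3.27, 4.95 and 3.01 CPM in sh2 and 2.83, 1.64 and 2.53 CPM in ctrl sh, and did not pass (log2FC 0.69 ± 0.29, adjusted *P* = 0.131). Against sh1, where it had 1.26, 1.32 and 1.36 CPM, *Dnah11* did pass (log2FC 1.51 ± 0.27, adjusted *P* = 0.0033). The low genes *Dnah5* and *Dnah7a* had log2FCs of 1.80 ± 0.72 and 1.09 ± 0.64 against ctrl sh and did not pass (adjusted *P* = 0.12 and 0.279).

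A pair of dyneins went the other way. *Dnah2*, an inner-arm chain, had 3.19, 2.60 and 3.93 CPM in sh2 against 5.51, 5.86 and 5.56 CPM in ctrl sh, without overlap (log2FC -0.79 ± 0.20, adjusted *P* = 0.0237). *Dnah8*, an outer-arm chain best known from sperm, had 18.3, 16.02 and 17.8 CPM against 27.9, 23.7 and 23.8 CPM (log2FC -0.52 ± 0.10, adjusted *P* = 0.00813). With sex as a term, neither passed (adjusted *P* = 0.0764 for *Dnah2* and 0.125 for *Dnah8*), and *Dnah2* passed in only 2 of the 6 fits that left out 1 library. Of the 12 axonemal dyneins tested in sh2, 2 rose, 2 fell and 8 did not pass. Only 10 dyneins were tested in sh1 against ctrl sh. *Dnah9* entered the sh2 test through its sh2 libraries, so it could only be called higher.

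**Figure D2:**
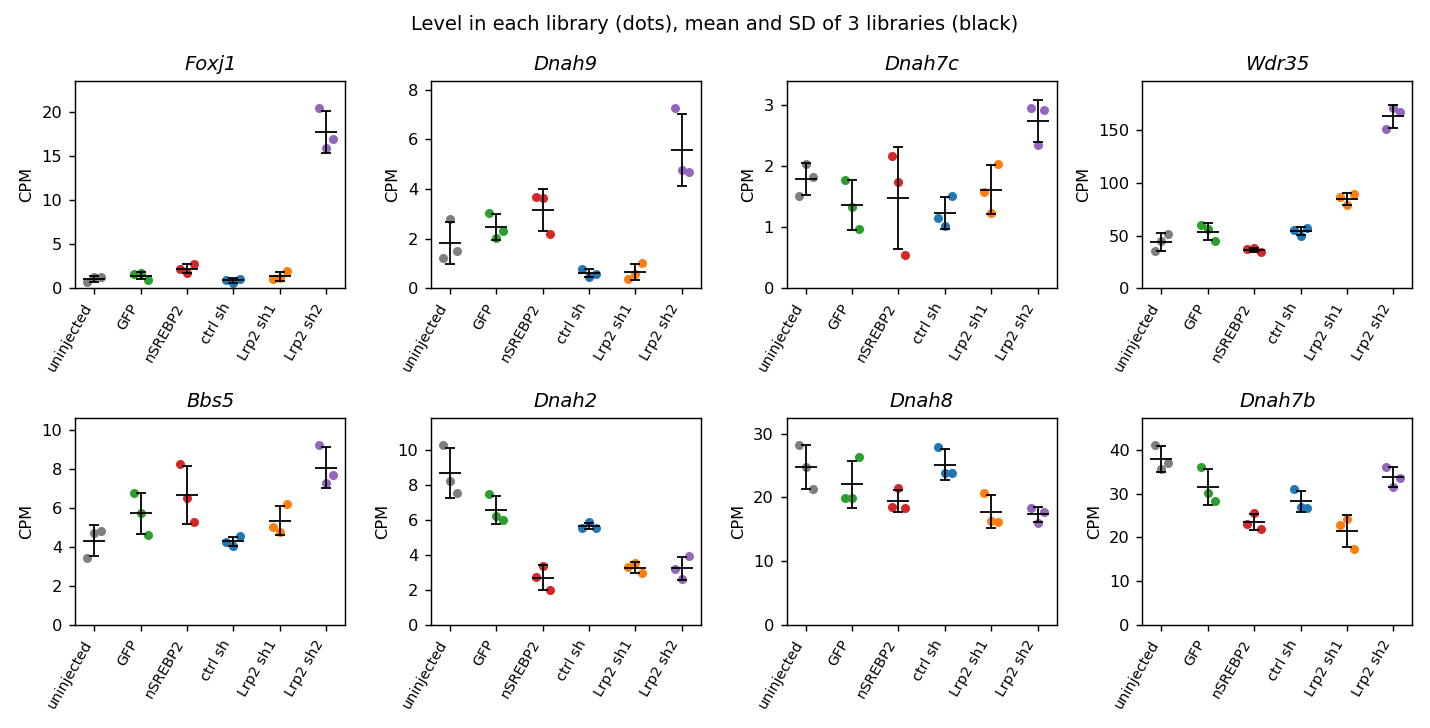
Level in CPM (vertical axes from 0) of 8 genes in each of the 18 libraries, with the mean and SD of the 3 libraries of each group in black. *Foxj1*, *Dnah9*, *Dnah7c* and *Wdr35* are highest in all 3 *Lrp2* sh2 libraries, *Wdr35* is stepped from ctrl sh through sh1 to sh2, and *Dnah2* is low in nSREBP2, sh1 and sh2.

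*Wdr35* (also known as IFT121), on chr12:8973892-9028847, plus strand, encodes a subunit of complex A. It and *Dnah2* were the 2 of the 47 genes called in all 3 comparisons of the study, *Dnah2* lower in each and *Wdr35* in opposite directions. Of all 17192 genes tested in the 3 comparisons, 1.52% were called in each of them, and of the 41 members so tested these were 2. Both hairpin comparisons share the ctrl sh libraries. The levels of *Wdr35* in sh2 were 151, 171 and 167 CPM. In sh1 they were 86.8, 78.8 and 89.7 CPM, and in ctrl sh 55.0, 49.9 and 57.7 CPM. The sh2, sh1 and ctrl sh libraries formed separate steps with no overlap between neighbours. The log2FC against ctrl sh was 1.60 ± 0.08 for sh2, a 3.04-fold difference (adjusted *P* = 1.83e-05), and 0.65 ± 0.07 for sh1, a 1.57-fold difference (adjusted *P* = 0.00171). The step from sh1 to sh2 was itself 0.95 ± 0.07 (adjusted *P* = 1.9e-05). With nSREBP2 the gene went down instead, to 37.8, 37.99 and 34.3 CPM against 60.6, 56.4 and 44.9 CPM in GFP (log2FC -0.56 ± 0.11, adjusted *P* = 0.00585). Uninjected libraries had 35.1, 44.9 and 51.7 CPM and overlapped the GFP, ctrl sh and nSREBP2 libraries. In the fit of all libraries, the nSREBP2 effect on *Wdr35* was lower than the sh2 effect by a log2 difference of -2.16 ± 0.17 (adjusted *P* = 6.72e-07).

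The rest of complex A was not called. *Ift43*, *Ift122*, *Ift140*, *Ttc21b* and *Wdr19*, which encode the rest of that complex, had log2FCs between -0.27 and 0.35 in the 3 comparisons and none passed. The genes on either side of *Wdr35* were looked at after its values were seen. *Matn3*, which encodes a cartilage matrix protein and ends upstream of *Wdr35*, had 154, 204 and 167 counts in sh2 and 13, 2 and 4 in ctrl sh (log2FC 4.86 ± 0.37, adjusted *P* = 8.17e-05). In sh1 it had 18, 16 and 28 counts, not called against ctrl sh (log2FC 1.78 ± 0.52, adjusted *P* = 0.0829), and sh2 was above sh1 (log2FC 3.085 ± 0.23, adjusted *P* = 1.71e-05). *Matn3* and *Wdr35* thus both had their highest level of the hairpin groups in sh2. *Matn3* was also higher in nSREBP2 than in GFP (log2FC 2.80 ± 0.36, adjusted *P* = 0.00061), where *Wdr35* was lower. It was too low to be tested in GFP or ctrl sh against uninjected libraries. *Matn3* therefore entered the tests against ctrl sh and GFP through the arms where it was high, and could only be called higher there. *Ttc32*, on the other side, had a log2FC of -0.07 ± 0.23 in sh2 (adjusted *P* = 0.872) and -0.95 ± 0.27 in nSREBP2 (adjusted *P* = 0.0347). Exons of *Wdr35* overlap none of another gene in GENCODE M21.

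The promoter sequences of RefSeq (GRCm38.p6, 250 bases before to 50 after the start) were available for 42 of the 47 genes and were searched on both strands. *Foxj1*, *Ift122*, *Ift80*, *Ift81* and *Dnah3* had no entry and were not searched. The X-box, a sterol regulatory element (TCACNCCAC), a shorter sterol element (GTGGGG), the forkhead core TGTTTAC and the E-box CACGTG were looked for, the X-box being the RFX site, the sterol elements and the E-box motifs that SREBP proteins can bind, and the forkhead core a motif of factors such as FOXJ1. The sequence in front of *Dnah9* (chr11:66168552-66168801, minus strand) is shown because this gene rose most among the dyneins. It holds the shorter sterol element, in capitals, and no exact match to the other 4 motifs. The X-box was searched in a single form with a fixed spacer, so near matches and other spacings were not counted. The shorter element, which was added to the search after the sequences had been seen, was present in 28.7% of all promoters and in 14 of the 42, *Wdr35*, *Dnah2* and *Dnah9* among them, and it overlaps the longer one where the N is C. The stretch in front of *Wdr35* (chr12:8973751-8973891, plus strand), up to the first annotated start, is shown because this gene was called in all 3 comparisons of the study, and it holds none of the 5. The single match to the longer sterol element near *Wdr35* lies between the annotated starts of GENCODE and RefSeq (chr12:8973912-8973941), with the sterol regulatory element in capitals.
*Dnah9*, 250 bases before the start: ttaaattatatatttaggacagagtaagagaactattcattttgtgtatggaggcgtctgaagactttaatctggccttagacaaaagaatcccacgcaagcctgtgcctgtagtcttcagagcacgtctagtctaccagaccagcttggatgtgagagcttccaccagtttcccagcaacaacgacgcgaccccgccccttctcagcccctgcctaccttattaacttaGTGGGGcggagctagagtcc
*Wdr35*, upstream: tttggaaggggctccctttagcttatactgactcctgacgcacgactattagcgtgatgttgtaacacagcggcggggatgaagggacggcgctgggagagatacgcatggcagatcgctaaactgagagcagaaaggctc
*Wdr35*, sterol regulatory element: ctgatcaactTCACCCCACaccaattacac

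The longer sterol element was present in 1.24% of all 32851 promoters and in 3 of the 42, *Wdr35*, *Dnah1* and *Dnah7a*. Of these, *Wdr35* fell with nSREBP2, *Dnah1* did not pass the test (log2FC 0.25 ± 0.16, adjusted *P* = 0.321) and *Dnah7a* was too low to be tested there. The X-box was present in 1.22% of all promoters and in 5 of the 42, *Bbs1*, *Bbs4*, *Bbs7*, *Ift22* and *Ift57*. The 3 with an X-box before the start are shown with its letters in capitals, at chr5:136908075-136908139 (plus strand, a pair of sites on opposite strands), chr3:36613484-36613524 (minus strand) and chr16:49699194-49699230 (plus strand). The matches describe these letters in these windows and nothing about binding.
*Ift22*: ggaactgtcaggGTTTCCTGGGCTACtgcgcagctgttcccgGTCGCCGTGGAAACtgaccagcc
*Bbs7*: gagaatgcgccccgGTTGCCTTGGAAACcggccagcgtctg
*Ift57*: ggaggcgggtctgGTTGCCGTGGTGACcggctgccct

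None of the 5 genes with an X-box passed the test in any of the 3 comparisons of the study, and *Bbs1* alone differed between the hairpins (log2FC 0.39 ± 0.11 for sh2 against sh1, adjusted *P* = 0.0332), a call that was kept in 1 of the 6 fits without 1 library. In the test of any difference among the 6 groups, *Ift22* (adjusted *P* = 0.00323), *Bbs1* (0.0175) and *Ift57* (0.04) passed. *Bbs4* and *Bbs7* did not (0.153 and 0.111), beside 48.7% of all genes that passed. The forkhead core was found in *Dnah17* alone (3.65% of all promoters) and the E-box in *Bbs7* and *Wdr19* (7.15% of all promoters). *Dnah17* and *Wdr19* were called in none of the 6 comparisons.

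The rest of the transport machinery differed little in level between sh2 and ctrl sh. Of its 29 transport and BBS genes, 26 were not called, with log2FCs between -0.32 and 0.35 and standard errors of 0.08 to 0.32. Beside *Wdr35*, the other 2 called were *Bbs5* and *Ift74*. *Bbs5*, a subunit of the BBS coat, had 9.26, 7.30 and 7.70 CPM in sh2 against 4.28, 4.06 and 4.55 CPM in ctrl sh, without overlap (log2FC 0.92 ± 0.16, adjusted *P* = 0.00469). *Ift74*, which binds tubulin within complex B, had 21.2, 16.4 and 19.3 CPM against 12.6, 14.4 and 14.4 CPM (log2FC 0.47 ± 0.13, adjusted *P* = 0.0306), but passed in only 1 of the 6 fits without 1 library. In complex A the most abundant gene per length over the 18 libraries was *Wdr35*, given above, although in uninjected libraries *Ift43* was higher. The most abundant of the other transport roles were not called. *Ift20*, in complex B, had 19.6, 16.7 and 22.0 CPM in sh2 and 18.3, 20.5 and 18.5 CPM in ctrl sh. *Kif3a*, the motor of kinesin-2, had 32.5, 30.8 and 35.0 CPM against 30.4, 31.9 and 29.2 CPM. *Wdr34*, an intermediate chain of dynein-2, had 10.9, 10.3 and 10.6 CPM against 8.42, 9.14 and 11.5 CPM, and *Bbs2* had 16.1, 13.7 and 14.4 CPM against 18.1, 19.3 and 18.3 CPM (log2FC -0.32 ± 0.11, adjusted *P* = 0.0651). Of these, *Bbs2* did not overlap between the groups, and the share of all genes without overlap was not counted.

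**Figure D3:**
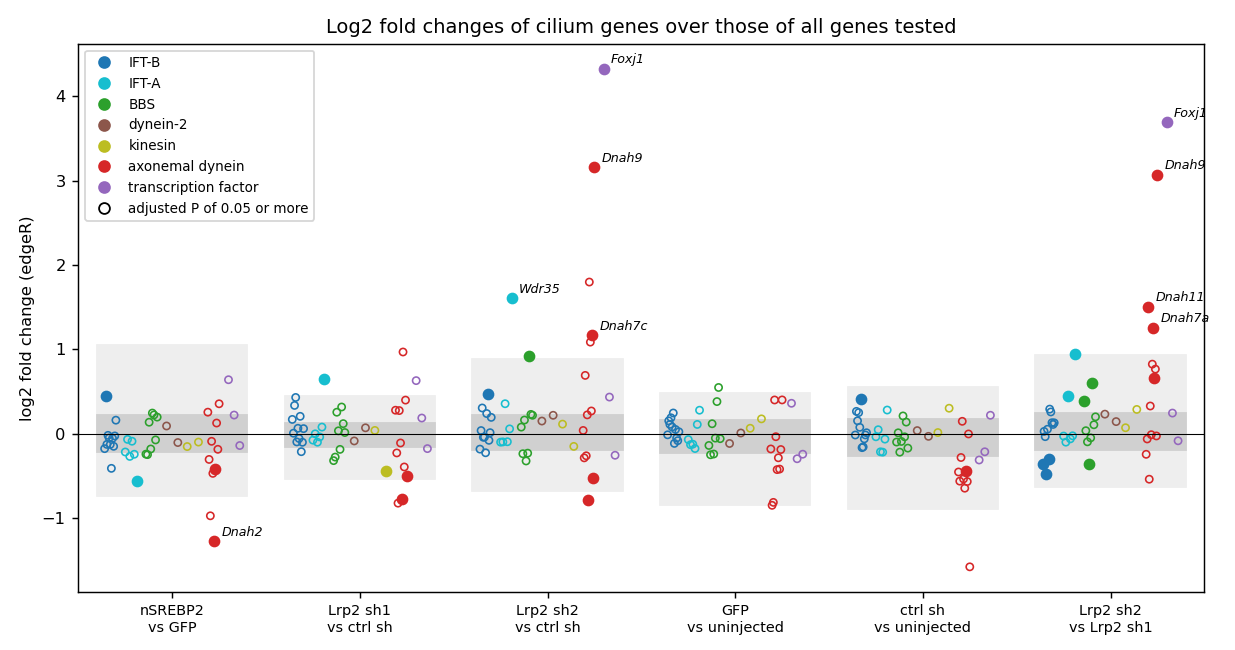
Log2 fold change (edgeR, vertical axis) of each tested gene in the 6 comparisons, coloured by role, filled where the adjusted *P* was under 0.05 and named where it also exceeded 1 in size; the grey bands span the middle 50% (dark) and 90% (light) of all genes tested. Most transport genes lie in or near the dark band in every comparison, and *Foxj1* and *Dnah9* lie far above the light band in both comparisons of *Lrp2* sh2.

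The other cilium genes, from lists of non-members, were read in the same fit. Of 25 other axonemal genes tested in sh2, 8 passed, all of them higher, where 18.1% of all genes passed and 8.59% were higher. They included *Drc1*, a dynein regulatory subunit, with 32, 18 and 26 counts in sh2 against 2, 0 and 3 in ctrl sh (log2FC 3.91 ± 0.56, adjusted *P* = 0.00162). *Dnali1*, a dynein light intermediate chain, had 25, 18 and 24 counts against 4, 4 and 2 (log2FC 2.79 ± 0.37, adjusted *P* = 0.00107). Genes as low in ctrl sh as *Drc1* and *Dnali1* passed the low-count filter only through their sh2 libraries. They could therefore only be called higher, and in sh1 against ctrl sh only 19 genes of this list were tested. The share and direction of the calls in this list are thus not comparable with those of all genes. Of 19 other transport and BBS genes tested, 3 passed, all of them higher, led by the complex B genes *Ttc26* (log2FC 0.74 ± 0.17, adjusted *P* = 0.0134) and *Ttc30a1* (log2FC 0.73 ± 0.20, adjusted *P* = 0.0365). Of 22 genes of the transition zone, the gate at the base of the cilium, and of ciliary signalling, 2 rose and 2 fell, led by *Tmem237* (log2FC -1.24 ± 0.12, adjusted *P* = 0.000256) and *Cep290* (log2FC 0.63 ± 0.09, adjusted *P* = 0.0017). Among 6 other regulators of multiciliated cells tested, *Rfx7* alone rose (log2FC 0.33 ± 0.07, adjusted *P* = 0.0104).

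The defining genes of multiciliated cells other than *Foxj1* were low in sh2 but not all near 0. *Sntn* had no count in any of the 18 libraries and *Mcidas*, which commits cells to that fate, had none in any sh2 or ctrl sh library. *Tmem212* had 0, 0 and 1 counts in sh2 and *Pifo* 6, 0 and 3. *Tekt1*, a tubulin-bound filament protein of the axoneme, had 11, 13 and 2 counts in sh2 against 6, 6 and 1 in ctrl sh, and *Rsph1*, a radial spoke protein, had 7, 9 and 8 against 3, 6 and 2. Neither of these was tested. Of the 3 markers that were tested, *Foxj1* was called, while *Cfap126* (42, 12 and 22 counts against 18, 18 and 12, log2FC 0.74 ± 0.42, adjusted *P* = 0.259) and *Ccno* (21, 10 and 14 against 16, 10 and 16, log2FC 0.18 ± 0.36, adjusted *P* = 0.777) were not. The summed level of 9 markers in the table was 3.71 to 4.14 CPM in ctrl sh and 19.6 to 27.4 CPM in sh2, of which *Foxj1* alone made 15.9 to 20.4 CPM. Without *Foxj1* the sum was 3.69 to 6.95 CPM in sh2 and 2.61 to 3.19 CPM in ctrl sh, without overlap. That sum was 4.06 to 5.82 CPM in uninjected and 3.06 to 4.17 CPM in sh1 libraries. In nSREBP2 it was 2.91 to 4.01 CPM and in GFP 2.21 to 3.83 CPM. The sh2 range overlapped each of these groups, so apart from *Foxj1* the list was not set apart in sh2.

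Genes of other cell-type lists were called in sh2 too, beside 18.1% of all genes called, 8.59% higher and 9.48% lower. The lists are short, so small counts of calls, such as those of the macrophage genes, are no result about a list. Only 12 rod genes were tested in sh1 against ctrl sh, so some entered the sh2 test through their sh2 libraries. Of 16 rod photoreceptor genes, 12 rose, with a summed level of 128 to 548 CPM in sh2 against 70.1 to 114 CPM in ctrl sh. Of 12 RPE genes, 7 fell, and of 8 proliferation genes, 7 rose (148.6 to 222 against 93.4 to 107 CPM). Of 9 endothelial genes, 8 fell (1339 to 1422 against 2014 to 2133 CPM), and of 6 blood genes, 5 fell (352 to 441 against 639 to 806 CPM). Of 9 fibroblast genes, 3 rose and 1 fell, and of 10 macrophage genes, 2 rose (371 to 500.1 against 339 to 355 CPM). With nSREBP2 the rod genes summed to 348 to 499 CPM (GFP 65.3 to 387 CPM, overlapping), the proliferation genes to 174 to 234 CPM (GFP 89.6 to 94.3 CPM), and *Foxj1* was at 1.74 to 2.74 CPM. Cone photoreceptor genes summed to 22.8 to 32.8 CPM with nSREBP2 (GFP 7.98 to 11.8 CPM, without overlap), and 4 of 6 tested rose. In sh2 the cone sum overlapped that of ctrl sh, and 0 of 4 tested were called. All 10 macrophage genes (615 to 662 CPM against 319.5 to 368 CPM in GFP) and 8 of the 9 fibroblast genes (71490 to 86910 against 34770 to 44220 CPM) rose with nSREBP2, and 6 of the 9 endothelial genes fell (1454 to 1539 against 1869 to 2396 CPM). Of all genes tested with nSREBP2, 12.6% rose and 8.47% fell. The part of these lists in the cilium results of either arm was not tested.

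**Figure D4:**
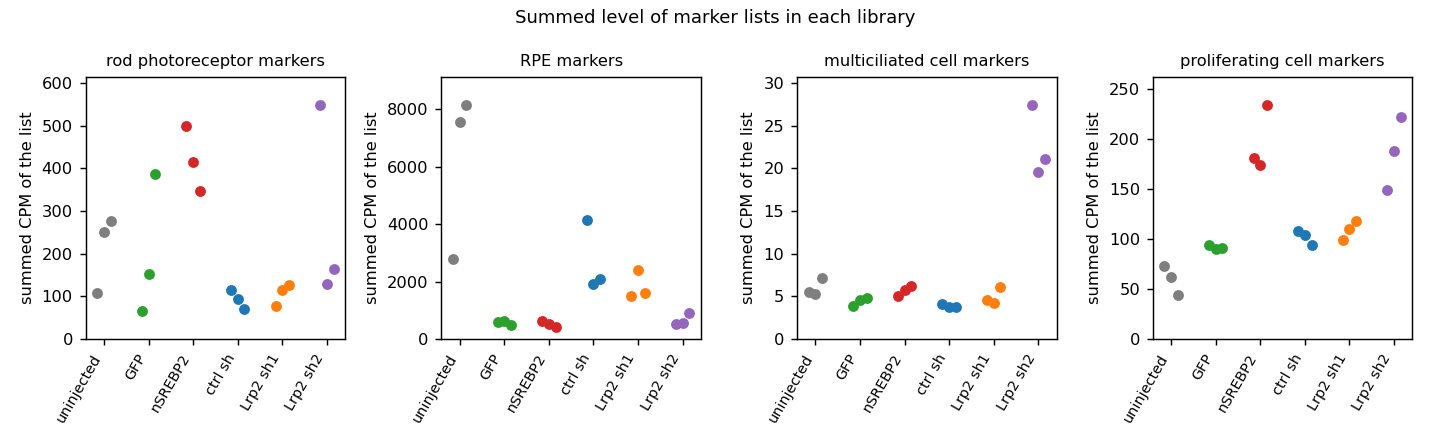
Summed CPM of 4 marker lists in each library (dots, vertical axes from 0; 16 rod, 12 RPE, 9 multiciliated and 8 proliferation genes found in the table). Proliferation markers are higher in nSREBP2 and *Lrp2* sh2 than in their controls, RPE markers are lowest in GFP, nSREBP2 and sh2, and the multiciliated list, carried by *Foxj1*, is high in sh2 alone.

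The hairpin sh1, which lowered *Lrp2* about as far, shared the calls of *Wdr35*, *Dnah2* and *Dnah8* with sh2, but *Foxj1* was not called with it. Against ctrl sh, 4 of 42 genes tested passed (9.52%), beside 5.33% of all genes tested, 1 higher (3.06% of all genes) and 3 lower (2.28%). None of the 4 exceeded a log2FC of 1, as 0.994% of all genes did. *Wdr35* rose, as given above, and *Dnah2*, *Dnah8* and *Kif7* fell. *Dnah2* had 3.32, 3.55 and 2.98 CPM in sh1 against 5.51, 5.86 and 5.56 CPM in ctrl sh (log2FC -0.78 ± 0.17, adjusted *P* = 0.0267), nearly the same size as with sh2. *Dnah8* had 20.7, 16.4 and 16.2 CPM against 27.9, 23.7 and 23.8 CPM (log2FC -0.50 ± 0.12, adjusted *P* = 0.0434). *Kif7*, a kinesin of the ciliary tip that organises Hedgehog signalling, had 13.5, 11.99 and 12.6 CPM against 16.9, 18.04 and 16.9 CPM (log2FC -0.44 ± 0.10, adjusted *P* = 0.0295). *Dnah2*, *Dnah8* and *Kif7* each passed in only 1 of the 6 fits without 1 library, whereas *Wdr35* passed in all 6. The 27 transport and BBS genes not called had log2FCs between -0.32 and 0.43. Among the other cilium genes, *Rsph3a* of the radial spoke was higher (log2FC 0.73, adjusted *P* = 0.0428) and *Cfap43* lower (log2FC -0.52, adjusted *P* = 0.0358) of 19 axonemal genes tested. *Tmem237*, lower in sh2, was higher in sh1 (log2FC 0.63, adjusted *P* = 0.0052), and *Cep290* was higher in both (sh1 log2FC 0.37, adjusted *P* = 0.0346). The libraries of ctrl sh served both hairpin comparisons, so their shared directions are not independent.

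Compared directly, 13 of 44 genes differed between the hairpins (29.5%), beside 22.4% of all genes tested, 9 higher (10.2% of all genes) and 4 lower (12.3%) in sh2, and 4 exceeded a log2FC of 1, as 5.13% of all genes did. The 9 were *Foxj1*, *Dnah9*, *Dnah11*, *Dnah7a*, *Wdr35*, *Dnah7b*, *Bbs5*, *Ift43* and *Bbs1*. Of these, *Dnah9* and *Dnah7a* entered this test through their sh2 libraries and could only be called higher. The 4 lower in sh2 were *Ift27* (log2FC -0.48 ± 0.12), *Bbs2* (-0.36 ± 0.11), *Ift172* (-0.36 ± 0.08) and *Ift52* (-0.29 ± 0.08), with adjusted *P* of 0.0122 to 0.0381. Of the 13, *Foxj1*, *Dnah9*, *Dnah11*, *Dnah7b*, *Wdr35* and *Ift172* passed in all 6 fits without 1 library. *Bbs5* and *Ift27* passed in 3 of these fits, *Ift43* and *Ift52* in 2, and *Bbs1* and *Bbs2* in 1. *Dnah7b*, the most abundant dynein per length, had 36.2, 31.6 and 33.7 CPM in sh2 and 22.9, 24.2 and 17.3 CPM in sh1, a log2FC of 0.66 ± 0.12 (adjusted *P* = 0.00382). In *Dnah7b*, ctrl sh lay between, with 31.1, 26.9 and 26.8 CPM. The adjusted *P* of *Dnah7a* was 0.05 after rounding, with 3 to 14 counts per library, and it passed in none of the 6 fits without 1 library. DESeq2 called 6 of the 44 genes in place of 13.

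nSREBP2 moved few cilium genes. Against GFP, 4 of 42 genes tested passed (9.52%), beside 21% of all genes tested, 1 higher (12.6% of all genes) and 3 lower (8.47%). The median log2FC of the 42 was -0.10, against -0.02 over all genes tested. *Dnah2* fell to 2.73, 3.398 and 2.01 CPM from 7.47, 6.21 and 6.00 CPM in GFP, without overlap (log2FC -1.27 ± 0.24, adjusted *P* = 0.00442), and it alone exceeded a log2FC of 1, as 6.67% of all genes did in either direction. *Dnah7b* fell to 23.0, 25.6 and 22.0 CPM from 36.2, 30.2 and 28.2 CPM (log2FC -0.42 ± 0.11, adjusted *P* = 0.0276), and *Wdr35* fell as given above. *Ift20*, the complex B subunit that also sits at the Golgi, rose to 24.8, 21.8 and 25.5 CPM from 14.6, 20.1 and 18.2 CPM (log2FC 0.45 ± 0.13, adjusted *P* = 0.0319). With sex as a term in the fit of all libraries, *Wdr35* and *Dnah2* still passed, and *Ift20* and *Dnah7b* did not. Of other axonemal genes, *Dnaaf3*, a factor that assembles dynein arms in the cytoplasm, rose from 1.72 ± 0.22 to 8.77 ± 1.89 CPM (log2FC 2.33 ± 0.23, adjusted *P* = 0.000129), and *Ccdc114* was the only other one called of 21 tested (log2FC 0.64 ± 0.17, adjusted *P* = 0.0227). *Myb*, a regulator of multiciliated cells as well as of proliferation, was the 1 called of 7 such regulators (log2FC 1.35, adjusted *P* = 0.0227). It had 18, 18 and 23 counts in nSREBP2 against 9, 10 and 6 in GFP. At these counts *Myb* passed the low-count filter through its nSREBP2 libraries, so it could only be called higher. *Tmem237* was the 1 called of 22 transition zone genes (log2FC -0.42 ± 0.11, adjusted *P* = 0.0247).

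*Rfx3*, the most abundant of the 3 transcription factors per length, differed among the 6 groups (adjusted *P* = 5.77e-05) by small steps. It had 59.4, 51.8 and 56.9 CPM in ctrl sh and 46.8, 48.5 and 46.8 CPM in uninjected libraries. It had 50.2, 52.4 and 46.0 CPM in sh1 and 45.8, 50.5 and 43.3 CPM in sh2. It was lowest in nSREBP2, at 35.8, 38.9 and 35.9 CPM, next to GFP at 39.2, 40.1 and 42.3 CPM. Sh1, sh2 and uninjected overlapped one another, and *Rfx3* was called in none of the 6 comparisons of group pairs.

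**Figure D5:**
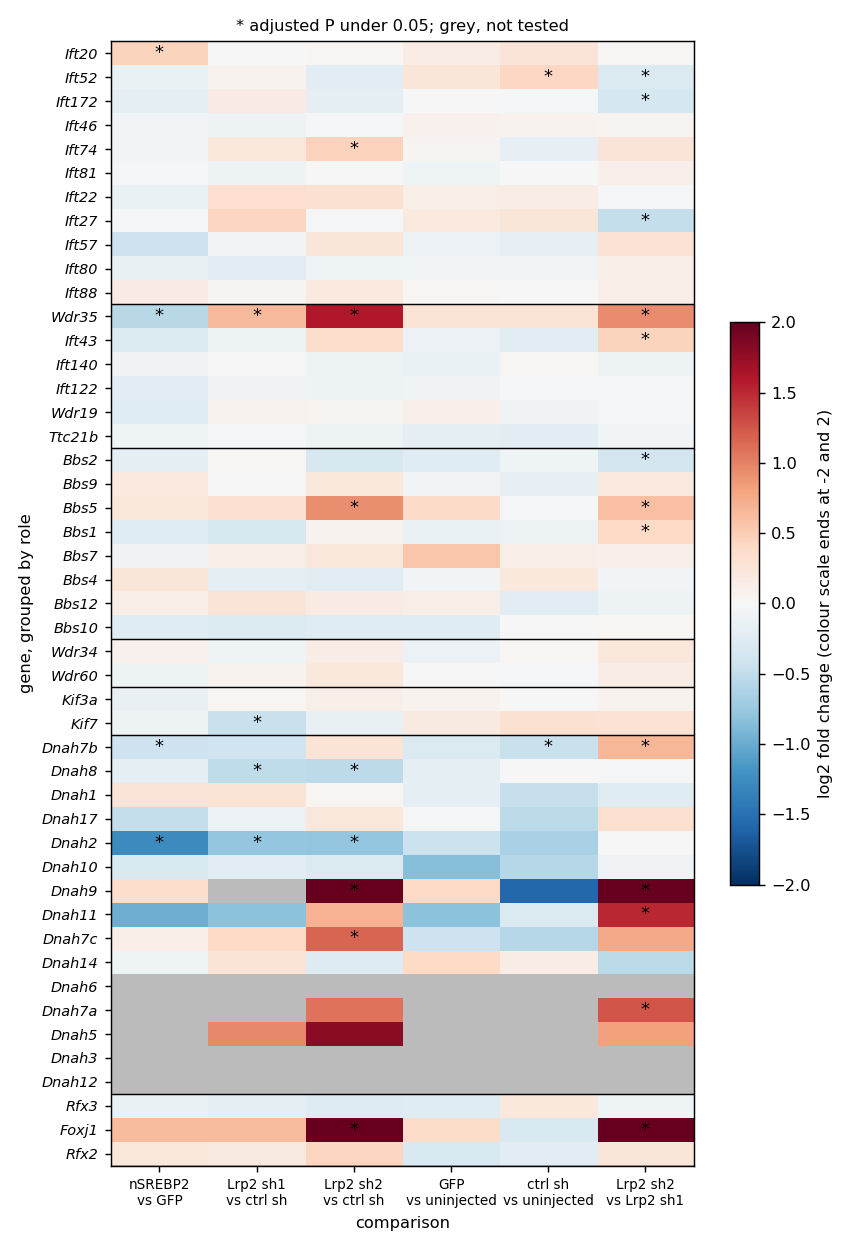
Log2 fold change (colour, scale ending at -2 and 2) of the 47 genes in the 6 comparisons (columns), rows grouped by role and ordered by level; stars mark an adjusted *P* under 0.05 and grey a gene that was too low to be tested. *Wdr35* and *Dnah2* have stars in all 3 comparisons of the study, *Wdr35* blue in nSREBP2 and red in both hairpins, *Dnah2* blue in all 3.

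The control vectors were also compared with the uninjected eye. GFP against uninjected gave 0 calls among 42 genes with edgeR, 7 at an unadjusted *P* under 0.05 (19.8% of all genes) and 0 with DESeq2, beside 2.48% of all genes called. Ctrl sh against uninjected gave 2 of 42, beside 6.49% of all genes, and neither exceeded a log2FC of 1, as 2.39% of all genes did. *Ift52* rose from 19.2, 20.7 and 21.3 to 26.4, 28.03 and 28.5 CPM (log2FC 0.41 ± 0.10, adjusted *P* = 0.0428), and *Dnah7b* fell from 41.1, 35.6 and 36.9 to 31.1, 26.9 and 26.8 CPM (log2FC -0.45 ± 0.11, adjusted *P* = 0.0428). Neither passed in any of the 6 fits without 1 library. *Dnah2* was highest in the uninjected eye, at 10.3, 8.22 and 7.55 CPM, and lay below that range in ctrl sh (log2FC -0.65 ± 0.17, adjusted *P* = 0.0593) and in GFP (log2FC -0.43 ± 0.18, adjusted *P* = 0.244) too. Uninjected eyes therefore had the highest *Dnah2* level of all 6 groups, with no overlap with any other.

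The lowest dyneins, which were too low to be tested in some or all of the comparisons, are given by their counts. *Dnah3* had 1 to 12 counts per library, *Dnah6* 0 to 15, *Dnah7a* 0 to 14, *Dnah5* 0 to 24 and *Dnah12* 0 to 13. *Dnah12* had 13, 9 and 11 counts in sh2 and 2, 2 and 2 in ctrl sh, but also 10, 7 and 3 in sh1. *Dnah5* had 18, 24 and 11 counts in sh2, and 3, 13 and 0 in ctrl sh.

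The nSREBP2 effect and the sh2 effect, each against its own control, differed for 5 of the 47 genes, beside 5.63% of all 19744 genes. These were *Wdr35*, *Foxj1*, *Dnah9*, *Dnah7b* and *Ift43*, in each of which the nSREBP2 effect was the lower. *Dnah2*, called lower in nSREBP2, sh1 and sh2 and highest in the uninjected eye, did not detectably differ between the nSREBP2 and sh2 effects (log2 difference -0.48 ± 0.28, adjusted *P* = 0.38).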

How the data were processed

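The deposited table holds whole-number read counts per gene for 18 libraries, which the authors made from rRNA-depleted, directional paired-end libraries with STAR on GRCm38. The annotation, the strand setting and the handling of multiply mapped reads are not given in the sources used here. Groups and replicate numbers came from the sample labels. The 47 genes, the other cilium lists and the marker lists were chosen with earlier results of these data known, so no count of calls over them is independent support.

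Counts were tested across all genes in R 4.3.3 with edgeR 4.0.16 (quasi-likelihood test, TMM factors, filterByExpr), separately for each pair of groups, with Benjamini-Hochberg adjustment over all genes tested and a threshold of 0.05. A fit of all 18 libraries gave the test of any difference and the difference between the nSREBP2 and *Lrp2* sh2 effects. CPM were computed from the counts and TMM factors, and exon lengths are from GENCODE M21, in which all 47 gene identifiers were found once version numbers were ignored. Whether replicates are separate litters is not stated, and *P* values measure the spread between these libraries. Alternatives were DESeq2 1.42.0, its size factors in edgeR, no filter, a minimum of 10 counts per library, a joint fit of the 6 groups with or without sex, the replicate number as a block and leaving out each library. The edgeR steps were checked on artificial counts. Named were the genes past the threshold, and with values in every library those that also exceeded a log2FC of 1 and the most abundant gene of each role per length, and of each other cilium list the 2 with the smallest adjusted *P* in a comparison.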

Additional observations from a re-analysis of the deposited data

Results flagged for a closer look

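The effects of nSREBP2 (against GFP) and of *Lrp2* sh2 (against ctrl sh) differed, by the contrast in the fit of all 18 libraries, for 5 genes. The log2 differences, nSREBP2 effect minus sh2 effect, were -3.68 for *Foxj1* (adjusted *P* = 3.77e-05), -2.80 for *Dnah9* (0.00218), -2.16 for *Wdr35* (6.72e-07), -0.69 for *Dnah7b* (0.0221) and -0.62 for *Ift43* (0.0356).

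The effects of the hairpins against their shared control differed, tested as sh2 against sh1, for 13 genes. The log2FC of sh2 over sh1 was 3.69 for *Foxj1* (adjusted *P* = 4.44e-06), 3.07 for *Dnah9* (0.000207), 1.51 for *Dnah11* (0.0033), 1.26 for *Dnah7a* (0.05) and 0.66 for *Dnah7b* (0.00382). It was 0.95 for *Wdr35* (1.9e-05), 0.60 for *Bbs5* (0.0302), 0.45 for *Ift43* (0.0253) and 0.39 for *Bbs1* (0.0332). It was -0.48 for *Ift27* (0.0212), -0.36 for *Bbs2* (0.0381), -0.36 for *Ift172* (0.0122) and -0.29 for *Ift52* (0.0317). Groups of 3 libraries were too small to look for single outlying libraries.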

How the results depend on the processing

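*Foxj1*, *Dnah9*, *Wdr35* and *Bbs5* in sh2 against ctrl sh, *Wdr35* in the other 2 comparisons of the study and *Dnah2* in nSREBP2 kept their calls in every alternative that gave a value; the minimum of 10 counts per library removed *Foxj1* and *Dnah9* from sh2 against ctrl sh, and *Dnah9* and *Dnah7a* from sh2 against sh1, so it gave none for them. Over 399 alternative fits of the named genes, 294 kept the call, 105 lost it and 0 changed direction. Genes called in nSREBP2 against GFP numbered 4, but 2 with sex as a term, 2 to 5 when 1 library was left out and 1 with a log2FC above 1 as well. In sh1 against ctrl sh they numbered 4, but 2 with DESeq2, 2 with the replicate block, 1 to 3 without 1 library and 0 above a log2FC of 1. In sh2 against ctrl sh there were 8, 7 to 9 without 1 library, and 4 above a log2FC of 1. In GFP against uninjected there were 0, but 1 in the fit of all libraries with or without sex as a term. In ctrl sh against uninjected there were 2, but 4 in the fit of all libraries, 6 with sex as a term, 0 with the replicate block, 0 in each fit without 1 library and 0 above a log2FC of 1. In sh2 against sh1 there were 13, but 6 with DESeq2, 8 with sex as a term, 6 to 10 without 1 library and 4 above a log2FC of 1. Among all 6 groups, 23 genes differed, and 19 to 23 without 1 library. With the replicate block, the calls of *Dnah2* and *Kif7* (sh1), *Ift74* and *Dnah2* (sh2), *Ift52* and *Dnah7b* (ctrl sh) and *Dnah7a* (sh2 against sh1) were lost. Same-numbered replicates had correlations of deviations between -0.26 and 0.27, and not every library correlated best with its own number, so the numbers were not taken to pair the samples. The cause of these losses was not tested. Counts under about 25 per library limit the 5 lowest dyneins.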
